A study of Mus musculus with 12 samples.

Results

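The genes described here encode the proteins of the cytosolic ribosome, in primary mouse oligodendrocytes (OLs) treated with an Egr2 knockdown reagent (siEgr2) or its control (siNC). Members were the entries of the deposited count table whose symbol is Rpl or Rps followed by a number, or Rplp0, Rplp1 or Rplp2, without the Rps6k kinases. This gave 93 of 56860 genes, 55 named for the large subunit and 38 for the small subunit. Of these, 89 had enough counts to be tested, 52 large and 37 small. The 4 members not tested were Rpl3l and Rpl10l, listed at 0 in every library, and Rpl39l and Rps23rg1, with 0 to 6 and 0 to 20 counts per library. GENCODE annotates 85 members as protein coding and 7 as processed pseudogenes (2 of them transcribed), among them Rps12l1, Rpl37rt, Rps4l and Rpl32l.

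The cells were OLs of C57BL/6J mice, isolated as O4+ cells from the cortex of newborn pups, and labelled as primary OLs of the medial prefrontal cortex. They were differentiated and then received siEgr2 (n = 6 libraries) or a scrambled control, siNC (n = 6), for 48 h. The study's methods name both small interfering RNAs and an interference plasmid for these cells. Egr2 is a zinc finger transcription factor needed for myelination, and the comparison asks which transcripts change when it is knocked down. Whether the 6 libraries of a group came from separate cultures is not stated, so p-values measure the spread between libraries, which may be technical.

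The ribosome is built from ribosomal RNA and one copy of most ribosomal proteins, so cells make these proteins in matched amounts. The large subunit joins amino acids and carries the flexible stalk that recruits elongation factors, and the small subunit decodes the mRNA. Most ribosomal protein mRNAs begin with a C followed by a run of pyrimidines, the terminal oligopyrimidine (TOP) tract, through which the TOR pathway controls their translation. In OLs, protein synthesis supplies the large amounts of myelin protein and membrane that wrap axons. Ribosomal protein genes also left many processed copies in the genome, which makes short reads from them hard to place.

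The sequence around the annotated start site is shown for 3 members whose start carries a TOP tract and for 2 members, among them the one with the largest change, whose annotated start does not. Each window runs from 10 bases before the RefSeq start through the first 20 bases of the transcript, in GRCm38.p6, and capitals mark the tract from the start base on. Rps6 lies at chr4:86857348-86857377 (minus strand), Rpl28 at chr7:4792955-4792984 (plus), Rps10 at chr17:27635225-27635254 (minus), Rps25 at chr9:44407704-44407733 (plus) and Rplp0 at chr5:115559457-115559486 (plus).
Rps6: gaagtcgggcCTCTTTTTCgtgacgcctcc
Rpl28: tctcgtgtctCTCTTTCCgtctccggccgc
Rps10: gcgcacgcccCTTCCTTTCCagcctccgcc
Rps25: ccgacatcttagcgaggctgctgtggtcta
Rplp0: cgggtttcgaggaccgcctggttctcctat

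RefSeq held such windows for 68 of the 93 members, 64 of them tested. A C at the start followed by at least 4 more pyrimidines, a tract of 5 letters or more, was found in 15 of 64 tested members (23.4%) and in 2.998% of the 11241 tested genes with a window. None of the 69 mitochondrial ribosomal protein genes with a window had one. Annotated starts can lie some bases away from the start used, so a run of at least 7 pyrimidines beginning with C within 25 bases of the start was counted as well. It was present in 64.1% of members and 28.9% of all tested genes.

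Before the groups are compared, 3 facts about the libraries bear on these genes. Total counts ran from 28682946 to 39383014 in siNC and from 8034251 to 16683677 in siEgr2, with no overlap. The 18S ribosomal RNA gene took 0.142% to 1.05% of counts in siNC and 10.5% to 16.5% in siEgr2. Egr2 itself had 4.80, 4.24, 5.57, 6.53, 3.89 and 7.06 CPM in siNC replicates 1 to 6 and 2.22, 3.01, 4.02, 4.86, 3.84 and 4.68 CPM in siEgr2, where CPM are counts scaled to a common library total by the trimmed mean of M-values (TMM), as throughout. These ranges overlap, and the log2 fold change of Egr2 was -0.51 ± 0.21 (SE, adjusted p = 0.0981), and -0.70 (adjusted p = 0.0144) under scaling by library size alone. All 5 astrocyte markers examined lay lower in every siEgr2 library than in any siNC library, with summed levels of 4223 to 4836 CPM against 6820 to 7469 CPM, and all 4 precursor markers rose. The summed level of the 6 markers of myelinating OLs was 6331 to 7135 CPM in siNC and 5806 to 6129 CPM in siEgr2. The 4 markers of newly formed OLs summed to 2209 to 2487 CPM in siNC and 2135 to 3102 CPM in siEgr2. Of these, Bcas1 had a positive log2 fold change and did not pass (0.34, adjusted p = 0.13). The other 3 were negative, and only Enpp6 passed (-0.22, adjusted p = 0.0483). The 4 markers of fibroblasts and pericytes, of which 2 fell (Dcn and Pdgfrb), summed to 578 to 984 CPM in siNC and 585 to 727 CPM in siEgr2, and the 4 neuronal markers to 127 to 141 and 110 to 122 CPM, of which Tubb3 fell and Syt1 rose. Microglial markers summed to at most 5.65 CPM in any library, with Aif1 at 0 in all 12. Endothelial markers summed to 1.45 to 2.35 CPM in siNC and 0.523 to 1.79 CPM in siEgr2, where Flt1 fell and Cldn5 was at 0 in all 12. The part of depth, ribosomal RNA and cell mixture in the results below was not tested, and in bulk RNA fewer cells of a type and less RNA per cell cannot be told apart.

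On the TMM scale, ribosomal protein transcripts of both subunits were slightly more abundant in siEgr2 than in siNC, while under scaling by library size alone their medians lay below 0. In the large subunit 15 of 52 tested genes rose (28.8%) and 0 fell, with a median log2 fold change of 0.11. In the small subunit 15 of 37 rose (40.5%) and 0 fell, with a median of 0.14. Over all 16600 tested genes 8.57% rose and 11.3% fell, with a median of 0.0046. These counts use an adjusted p under 0.05 and no limit on the fold. Among the 6500 tested genes as abundant as most members (mean log2 CPM of at least 5), 11% rose and 15.4% fell, against 29 of 80 members at that level that rose.

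The size of the change was small beside the study's own limit of 0.5 on the log2 scale. With that limit added, 1 member was called higher, Rps25, and none lower, where 2.63% of all tested genes were called higher and 5.08% lower. A positive log2 fold change was found for 83 of the 89 tested members, against 50.9% of all tested genes. The quartiles of the members were 0.08 and 0.17, and those of all tested genes -0.17 and 0.17. In 11 members, 6 large and 5 small, every siEgr2 library exceeded every siNC library, and in 0 the reverse held. The matching shares of all tested genes were 4.15% and 7%.

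**Figure D1:**
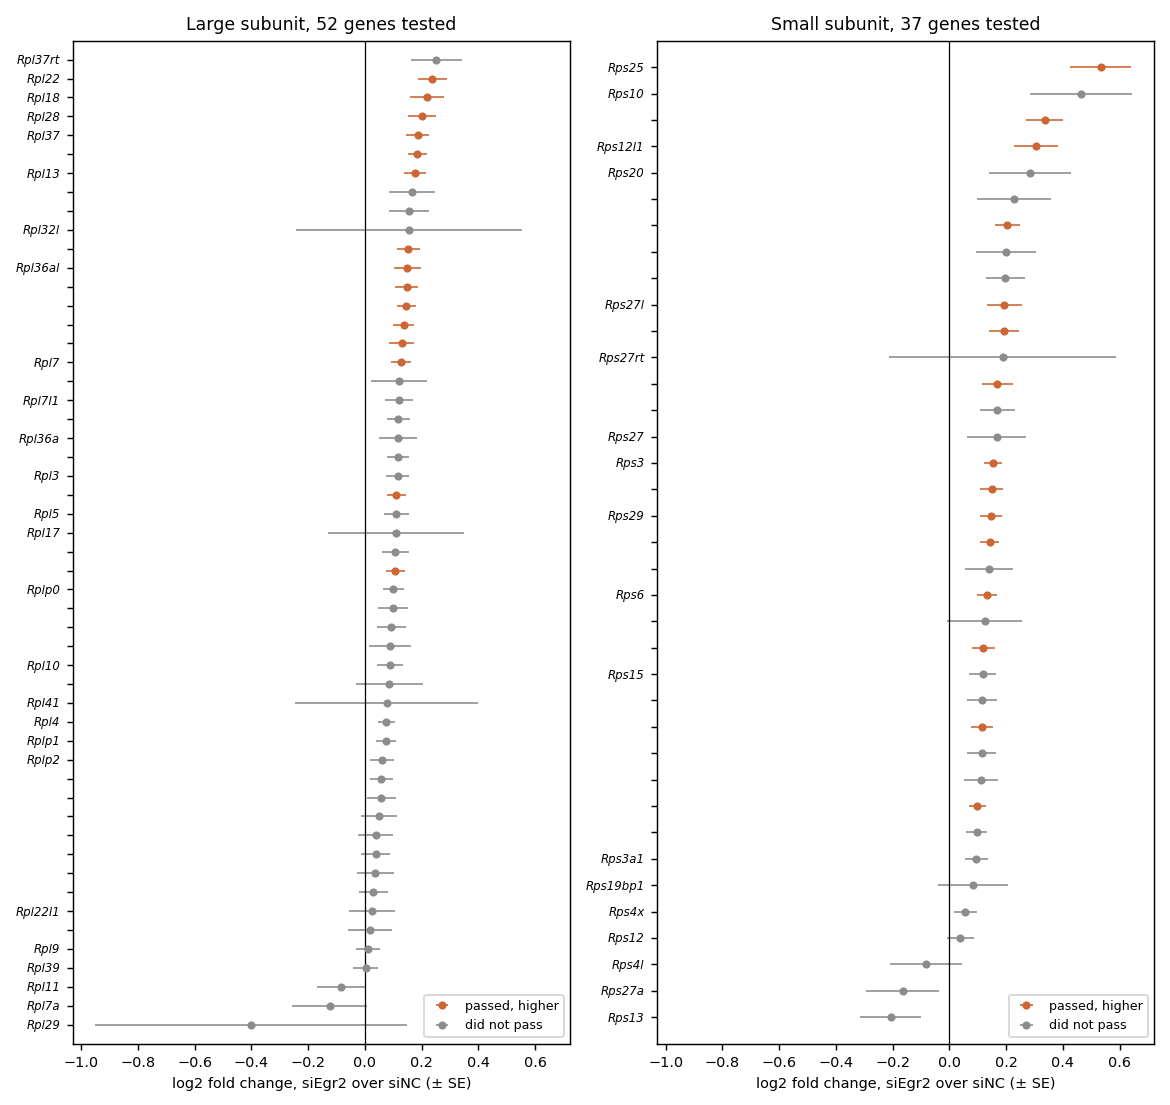
Log2 fold change of siEgr2 over siNC (points, with bars of 1 SE) for the 52 large and 37 small subunit genes tested, sorted within each panel, with genes that rose at an adjusted p under 0.05 in orange and symbols beside the genes chosen for naming. On this TMM scale most points sit just right of 0 (the medians turn below 0 under library-size scaling), Rps25 and Rps10 lie farthest right, and the long bars of Rpl29, Rpl41, Rpl32l, Rps27rt and Rpl17 mark genes that vary strongly between libraries.

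On the TMM scale the shift was present in each of the 6 siEgr2 libraries. Relative to the siNC mean of each gene, the median large subunit gene lay 0.19, 0.19, 0.08, 0.04, 0.07 and 0.09 higher on the log2 scale in siEgr2 replicates 1 to 6. The 6 siNC libraries lay between -0.04 and 0.04. For the small subunit, the siEgr2 medians were 0.21, 0.22, 0.11, 0.07, 0.12 and 0.11, and the siNC medians lay between -0.04 and 0.04. Every siEgr2 median was above every siNC median in both subunits. For the large subunit the margin was narrow, with 0.045 in siEgr2 replicate 4 and 0.039 in siNC replicate 4. Counted as large subunit genes above their siNC mean, the groups overlapped, with 33 of 52 in siEgr2 replicate 4 and 39 in siNC replicate 6. The highest medians were those of siEgr2 replicates 1 and 2. These 2 libraries had 13.8% and 13.9% of counts on 18S, inside the range of the other siEgr2 libraries. For the 78 genes of the mitochondrial ribosome the medians were 0.03 and 0.04 in siEgr2 replicates 1 and 2 and -0.08 to -0.05 in the other 4.

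**Figure D2:**
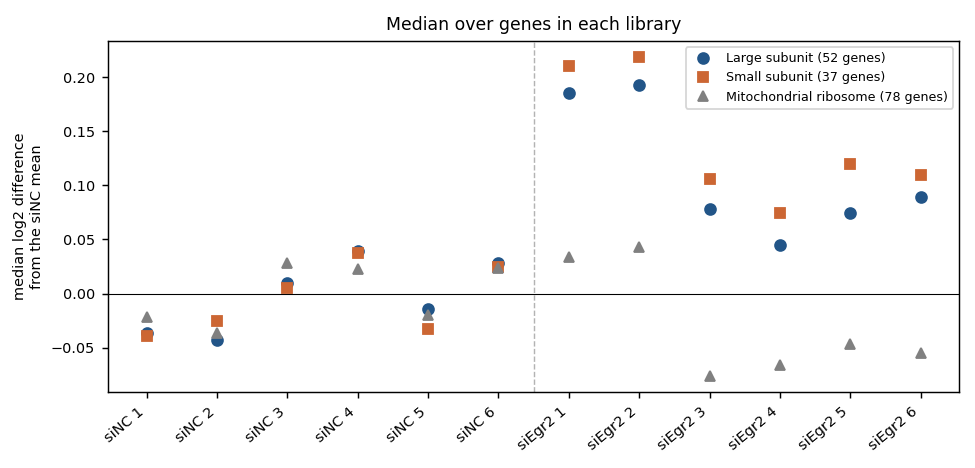
Median difference from the siNC mean, in log2 CPM on the TMM scale (under library-size scaling the fitted medians of the cytosolic sets turn below 0), over large subunit genes (circles), small subunit genes (squares) and mitochondrial ribosomal protein genes (triangles) in each of the 12 libraries. Both cytosolic sets lie above every siNC library in all 6 siEgr2 libraries, between 0.04 and 0.22. The margin is narrow for the large subunit (0.045 in siEgr2 replicate 4, 0.039 in siNC replicate 4). The mitochondrial set straddles 0.

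Whether members took a larger share of the counts depended on what the share was taken of. Out of counts without ribosomal and other structural RNA, large subunit genes took 1.25% to 1.34% in siNC and 1.35% to 1.49% in siEgr2. Small subunit genes took 0.813% to 0.883% in siNC and 0.906% to 1.001% in siEgr2, so that neither pair of ranges overlapped. Out of all counts, the ranges did overlap, at 1.24% to 1.33% against 1.13% to 1.28% for the large subunit and 0.807% to 0.876% against 0.756% to 0.860% for the small. Scaling by library size alone, which keeps the structural RNA in the totals, moved the median log2 fold change of all tested genes to -0.18. The members then had medians of -0.07 (large) and -0.04 (small), 1 rose and 12 fell, where 3.04% of all tested genes rose and 32.6% fell. Relative to the median of all genes they lay 0.10 and 0.14 higher, as with TMM scaling, and 82 of 89 members were above that median under both scalings.

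**Figure D3:**
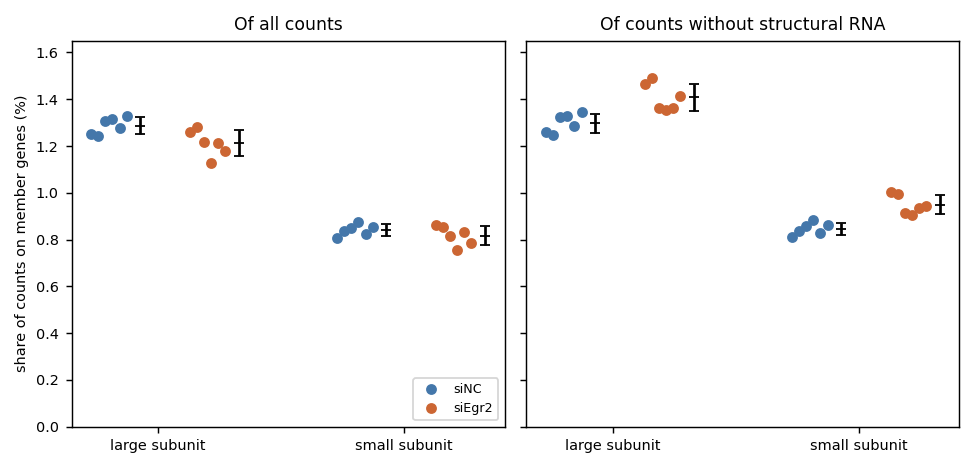
Share of counts on large and small subunit genes in each library (points, 6 siNC in blue and 6 siEgr2 in orange; bars, mean ± SD), of all counts (left) and without structural RNA genes (right). On the left the groups overlap; on the right each siEgr2 library lies above each siNC library in both subunits.

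The balance between the subunits differed little. The ratio of large to small subunit counts was 1.53 ± 0.03 (SD, n = 6) in siNC and 1.48 ± 0.02 in siEgr2. The ranges, 1.49 to 1.56 and 1.46 to 1.499, overlapped through siNC replicate 2 (1.488), and the other 5 siNC libraries lay above all siEgr2 libraries.

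No stalk gene passed the test as fitted here, but several did under alternatives. Rplp0, which anchors the stalk and is often used as a reference gene in quantitative PCR, was the most abundant member. It had 770 to 839 CPM in siNC (median 791) and 802 to 930 CPM in siEgr2 (median 838), with a log2 fold change of 0.10 ± 0.04 (SE, adjusted p = 0.0737), and it passed in 5 of 28 alternatives, among them siNC replicate 6 left out (adjusted p = 0.04997), protein-coding genes and members alone (0.0328) and length and GC trends removed (0.00167). Rplp1 had 474 ± 10.6 CPM (SD, n = 6) in siNC and 498 ± 23.8 in siEgr2, and Rplp2 had 243 ± 6.55 and 253 ± 15.7 CPM. Rplp2 passed as higher with length and GC trends removed (adjusted p = 0.0409), and under library-size scaling Rplp1 (0.0335) and Rplp2 (0.0481) passed as lower. Per kilobase of the principal annotated mRNA, Rplp1 was the highest member at 974 CPM, and the median member stood at 265 CPM per kilobase in the large subunit and 316 in the small.

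Rpl5 and Rpl11, which bind the 5S ribosomal RNA and can hold the p53 regulator Mdm2, did not pass as fitted here. Rpl5 had 403 ± 19.6 CPM in siNC and 435 ± 26.3 in siEgr2 (adjusted p = 0.0871), and it passed without siNC replicate 4 (adjusted p = 0.0471) or without siEgr2 replicate 6 (0.0314), and with protein-coding genes and members alone (0.0409). Rpl11 had 306 ± 30.2 and 289 ± 36.4 CPM (adjusted p = 0.555), and it passed as lower under library-size scaling (-0.27, adjusted p = 0.0097). Nor did Rpl4 and Rpl3, proteins of the subunit's core, pass, with log2 fold changes of 0.08 ± 0.03 and 0.12 ± 0.04 and adjusted p of 0.0979 and 0.0541. Rpl4 passed with length and GC trends removed (adjusted p = 0.00639) and with protein-coding genes and members alone (0.0373), and as lower under library-size scaling (0.0239). Rpl3 passed in 10 of 28 alternatives, among them DESeq2 (adjusted p = 0.0426), sequence-matched copies added (0.026) and siEgr2 replicate 4 left out (0.00739).

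Among the large subunit genes that rose, Rpl22, an RNA-binding protein of the ribosome's surface, had the largest change. Its level was 151 to 178 CPM in siNC (median 172) and 189 to 227 CPM in siEgr2 (median 195), with no overlap (log2 fold change 0.24 ± 0.05, adjusted p = 0.00306). Its paralog Rpl22l1 had 67.5 ± 7.09 and 68.6 ± 7.39 CPM and a log2 fold change of 0.02 ± 0.08. Whether the paralogs differed in their change was not tested. Rpl18 (0.22 ± 0.06, adjusted p = 0.0151), Rpl28 (0.20 ± 0.05, adjusted p = 0.00798), Rpl37 (0.19 ± 0.04, adjusted p = 0.00376) and Rpl13 (0.18 ± 0.04, adjusted p = 0.00379) followed among the genes that rose. Rpl18 lost its call without the largest and smallest library (adjusted p = 0.0588), and all 5 genes lost theirs under library-size scaling. Of these, Rpl37 and Rpl13 had no overlap between the groups. Rpl37rt, a transcribed processed pseudogene by its annotation, had the highest log2 fold change of the subunit, 0.25 ± 0.09, and did not pass (adjusted p = 0.0609), but did in DESeq2 (0.0326), with protein-coding genes and members alone (0.0436), and without siNC replicate 5 (0.0415) or siEgr2 replicate 4 (0.0321).

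In the small subunit Rps25 changed most. Rps25 sits on the head of the subunit and is needed for initiation at several viral internal ribosome entry sites. It had 105, 107, 164, 113, 107 and 106 CPM in siNC replicates 1 to 6 and 189, 180, 156, 153, 168 and 169 CPM in siEgr2. The log2 fold change was 0.53 ± 0.11 (SE, adjusted p = 0.0033). The other 5 siNC libraries lay far below all siEgr2 libraries, but siNC replicate 3 lay inside the siEgr2 range. Without that library the log2 fold change was 0.66, and without siEgr2 replicate 1 it was 0.50, just under the fold limit, with an adjusted p of 0.00909. The gene spans chr9:44407139-44410427 on the plus strand of GRCm38. In the annotation its exons share 462 bases with Trappc4 and 206 with Ccdc84, both on the opposite strand. Whether the counts keep strands apart is not given, and the part of these genes in the Rps25 values was not tested.

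Rps10 (chr17:27630418-27636669, minus strand), also a protein of the head and a gene mutated in Diamond-Blackfan anaemia, showed steps of the same kind. Its levels were 89.6, 95.4, 163, 102, 96.8 and 106 CPM in siNC replicates 1 to 6 and 164, 113, 108, 175, 166 and 175 CPM in siEgr2. The groups overlapped through siNC replicate 3, which again stood with the high libraries, while siEgr2 replicates 2 and 3 stood close to the low ones. The log2 fold change of 0.46 ± 0.18 did not pass (adjusted p = 0.0985), and without siNC replicate 3 it was 0.62 and did (adjusted p = 0.0101). With every library kept it also passed in DESeq2 (0.47, adjusted p = 0.0143).

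Rps3, which lines the mRNA entry channel, rose from 486 ± 16.7 to 540 ± 16.8 CPM with no overlap (0.15 ± 0.03, adjusted p = 0.00242). Rps6, the target of the S6 kinases, rose from 378 ± 18.2 to 414 ± 13.1 CPM (0.13 ± 0.04, adjusted p = 0.016), with overlapping ranges. Rps29 rose by a similar amount (0.15 ± 0.04, adjusted p = 0.0144). With no filter the calls of Rps6 (adjusted p = 0.146) and Rps29 (0.117) were lost, and with length and GC trends removed Rps29 was at 0.09 (0.16). Rps20 had a log2 fold change of 0.28 ± 0.14 and did not pass (adjusted p = 0.203).

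None of the 6 tested members with a negative log2 fold change passed, and several of them differed strongly between libraries of the same group. Rpl29, a small heparin-binding protein, had the lowest at -0.40 ± 0.55 (adjusted p = 0.675). It stood at 3.66 CPM, or 49 counts, in siEgr2 replicate 4, against 98.7 to 133 CPM in the other siEgr2 libraries and 77.8 to 166 CPM in siNC, and without that library the log2 fold change was -0.15. Rps27a, a fusion of ubiquitin and a ribosomal protein, had 230 CPM in siNC replicate 4 and 123 to 155 CPM in every other library. Its log2 fold change was -0.17 ± 0.13, and -0.02 without siNC replicate 4. Rps4x (0.06 ± 0.04), Rps12 (0.04 ± 0.05), Rpl9 (0.01 ± 0.04) and Rpl39 (0.00 ± 0.04) were among the genes with tight libraries and little difference on the TMM scale, while under library-size scaling all 4 passed as lower (adjusted p = 0.0498, 0.0204, 0.0173 and 0.00525).

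Rpl41, which encodes the shortest protein of the ribosome, was singled out after its values were seen because its libraries fell into separate levels. It had 190, 170, 409, 377, 184 and 440 CPM in siNC replicates 1 to 6 and 346, 359, 188, 379, 192 and 401 CPM in siEgr2. In siNC 3 and in siEgr2 2 libraries lay between 170 and 192 CPM, and the other 7 between 346 and 440. The levels did not follow the treatment, and the log2 fold change was 0.08 ± 0.32 (adjusted p = 0.901).

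**Figure D4:**
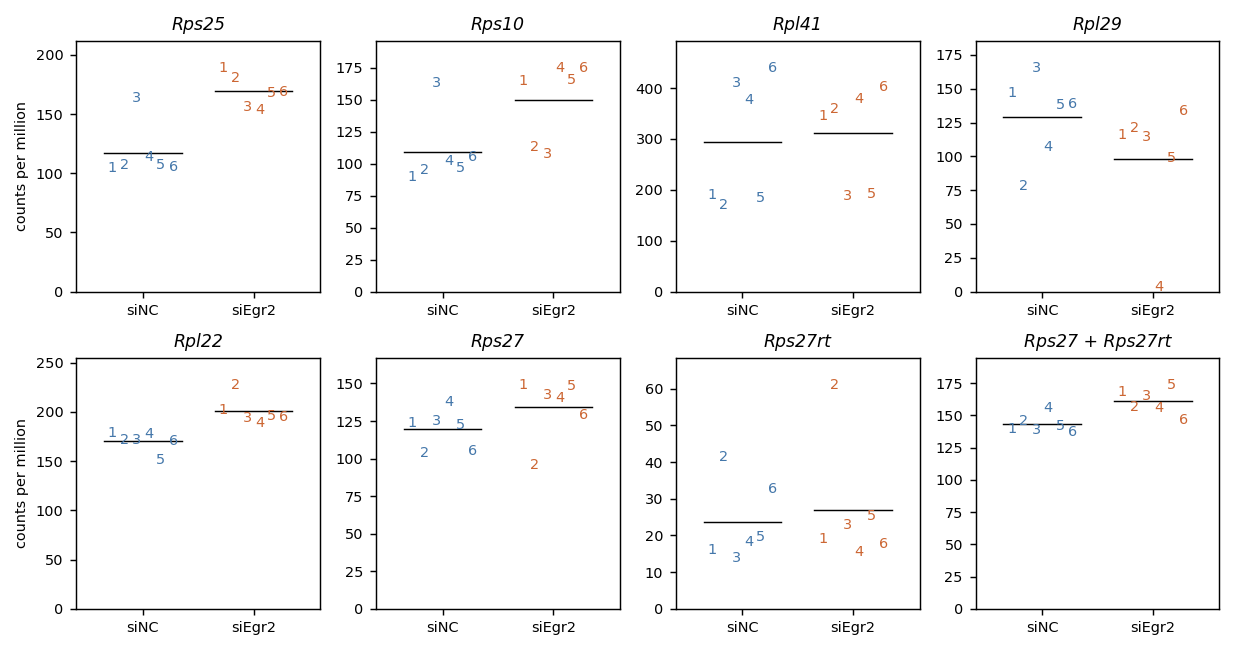
CPM in each library (numerals are replicate numbers, lines are group means; axes start at 0) for Rps25, Rps10, Rpl41, Rpl29, Rpl22, Rps27, Rps27rt and the sum of the last pair. Rps25 and Rps10 are high in siNC replicate 3 as in siEgr2 libraries, Rpl41 takes a low or a high level in both groups, Rpl29 nearly vanishes in siEgr2 replicate 4, and Rps27 and Rps27rt move oppositely in siNC and siEgr2 replicates 2.

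Several members have near-identical copies elsewhere in the genome, whose part in the values above was not tested. Rps27 and the row Rps27rt carry the same 252 coding bases, with 0 differences between their annotated coding sequences, while the paralog Rps27l differs from Rps27 at 60 of the 252 positions (76.2% identical). Coding bases 6 to 35 are shown for the 3 genes, with capitals where a gene differs from Rps27.
Rps27: tctcgcaaaggatctccttcatccctctcc
Rps27rt: tctcgcaaaggatctccttcatccctctcc
Rps27l: CctGgcTaGAgatctGTtAcaCccTtcCTT

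A 50-base read from within the coding sequence cannot be placed on Rps27 or Rps27rt by its sequence. Rps27 had 104 CPM in siNC replicate 2 and 95.7 CPM in siEgr2 replicate 2, its lowest values in each group, where Rps27rt had its highest, 41.3 and 61.0 CPM. The sum of the pair varied less than Rps27 alone, by 4.74% against 10.8% (coefficient of variation) in siNC and by 6.06% against 15.0% in siEgr2. Rps27 alone did not pass (0.17 ± 0.10, adjusted p = 0.296), but did without siEgr2 replicate 2 (0.0238). The summed level was 143 ± 6.78 CPM in siNC and 161 ± 9.76 in siEgr2. Rps27l, whose sequence is distinct and which p53 is known to induce, rose from 86.8 ± 5.09 to 99.2 ± 9.23 CPM (0.19 ± 0.06, adjusted p = 0.0365). Its call was lost in 13 of 28 alternatives, including thinning (adjusted p = 0.0699) and 8 of 12 in which 1 library was left out (siNC replicates 1, 3, 5 and 6 and siEgr2 replicates 1, 2, 4 and 5, adjusted p up to 0.0941), and with length and GC trends removed its log2 fold change was 0.067 (adjusted p = 0.406).

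Rps13 had a log2 fold change of -0.21 ± 0.11 on its own (adjusted p = 0.215), and passed as lower under library-size scaling (-0.39, adjusted p = 0.0117). The pseudogene rows Rps13-ps1 and Rps13-ps2, named after their values were seen, rose with log2 fold changes of 2.01 and 2.10 (adjusted p = 0.033 and 0.040). Their groups overlapped, with 20.1 and 19.2 CPM in siNC replicate 3 and 8.19 and 7.31 CPM in siEgr2 replicate 6. The 2 pseudogene rows moved together across libraries, so they are not separate results. Rps13 and these 2 rows summed to 173 ± 6.67 CPM in siNC and 196 ± 21.1 in siEgr2. With the counts of all rows that share its sequence added to Rps13, the log2 fold change became 0.19 (adjusted p = 0.0367). Rpl7a also turned, from -0.12 ± 0.13 to 0.16 (adjusted p = 0.0011). Its 29 copy rows added 266% to its own level, against 27.1% for Rps13, so the Rpl7a value is mostly that of the copies. With named pseudogene rows alone added, Rpl7a was at 0.088 (adjusted p = 0.21). With the sequence-matched copies added, Rps25 (0.54) kept its direction and its call. Rps10 (0.36, adjusted p = 0.0443) then passed, and Rpl29 (-0.07) remained without a call.

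Across members, the share of a gene's 50-base words found in transcripts of other genes ran from 0% to 100%. Among the 80 abundant members, 3 of the 6 with under 10% of words shared rose, 21 of 54 with 10% to 75%, and 5 of 20 with at least 75%. The median spread between libraries of a group was 0.07, 0.08 and 0.11 on the log2 scale in these sets. The rank correlation of the spread with the shared portion was 0.20 over the 80 genes, which share libraries and copies, and that of the log2 fold change was -0.24. With copies added to their members, 24 large and 20 small subunit genes rose in place of 15 and 15, and 8.8% of all genes tested in that fit rose.

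Paralogs used in particular tissues were low or absent. Rpl3l of muscle and Rpl10l of testis were at 0 in all 12 libraries, and Rpl39l had 0 to 6 counts. A count of 0 allows up to 3 counts per library, so Rpl3l and Rpl10l were not detectable at this depth. Their broadly used partners were abundant and did not pass: Rpl3 (above), Rpl10 at 131 ± 5.98 and 139 ± 8.495 CPM, and Rpl39 at 183 ± 10.6 and 183 ± 8.11 CPM. Rps4l had 7.35 ± 0.959 and 6.96 ± 0.919 CPM. Rpl36al rose (0.15 ± 0.05, adjusted p = 0.0377) and Rpl36a did not pass (0.12 ± 0.07, adjusted p = 0.24), and Rpl7 rose (0.13 ± 0.03, adjusted p = 0.016) while Rpl7l1 did not pass (0.12 ± 0.05, adjusted p = 0.103). The call of Rpl36al was lost in 14 of 28 alternatives, among them the replicate block (adjusted p = 0.0724) and 9 of 12 in which 1 library was left out (siNC replicates 1, 2, 3, 5 and 6 and siEgr2 replicates 2, 3, 4 and 6, adjusted p up to 0.0941). Rpl7l1 passed without siEgr2 replicate 6 (adjusted p = 0.0477) and with length and GC trends removed (0.0144). The call of Rpl7 was lost with the replicate block (adjusted p = 0.0555), with no filter (0.164) and under library-size scaling (0.314). The differences within these pairs were not tested. Rps12l1, annotated as a processed pseudogene and with every word found in other genes, rose from 27.9 ± 0.953 to 34.5 ± 4.44 CPM (0.31 ± 0.08, adjusted p = 0.0108). That call was lost after thinning to the smallest total (0.23, adjusted p = 0.0724) and under library-size scaling (0.12, adjusted p = 0.259). Rps19bp1, which the symbol rule catches although it encodes a binding partner of Rps19, had 14.3 ± 1.62 and 15.2 ± 2.96 CPM.

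Some ribosomal protein genes have symbols outside the rule. Fau, whose product is cleaved to Rps30, rose without overlap from 160 ± 4.33 to 183 ± 11.1 CPM (0.20 ± 0.04, adjusted p = 0.00318), a call lost under library-size scaling (0.014, adjusted p = 0.827). Rpsa (0.08 ± 0.04, adjusted p = 0.156) and the scaffold Rack1 (0.05 ± 0.06, adjusted p = 0.616) did not pass. Rpsa passed as higher with length and GC trends removed (adjusted p = 0.00308) and without the largest and smallest library (0.0423). Under library-size scaling Rpsa passed as lower (-0.10, adjusted p = 0.0365).

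Other lists tied to ribosome production were described by the same counts, with examples chosen after their values were seen. The shares of all tested genes to set beside them are 8.57% that rose and 11.3% that fell, and 11% and 15.4% among abundant genes. Of 29 other TOP mRNAs 9 rose (31.0%) and 0 fell, with a median of 0.08. Among them were the elongation factor genes Eef1a1 (0.11 ± 0.03, adjusted p = 0.00814) and Eef1b2 (0.16 ± 0.05, adjusted p = 0.0352), and the snoRNA host Gas5 (0.29 ± 0.05, adjusted p = 0.000675). Of 57 ribosome biogenesis genes 9 rose (15.8%) and 0 fell, with a median of 0.08. Nop58 and Gar1, which serve in snoRNA particles, rose by 0.21 ± 0.06 and 0.29 ± 0.08, and Nmd3, the export adaptor of the large subunit, rose by 0.25 ± 0.06 (adjusted p = 0.00888). Of 78 mitochondrial ribosomal protein genes 2 rose, Mrpl53 and Mrpl58, and 2 fell, Mrps15 and Mrpl51 (2.56% each), with a median of -0.02. Of the 126 tested rows named as pseudogenes of ribosomal protein genes, 20 rose (15.9%) and 0 fell, with a median of 0.20.

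**Figure D5:**
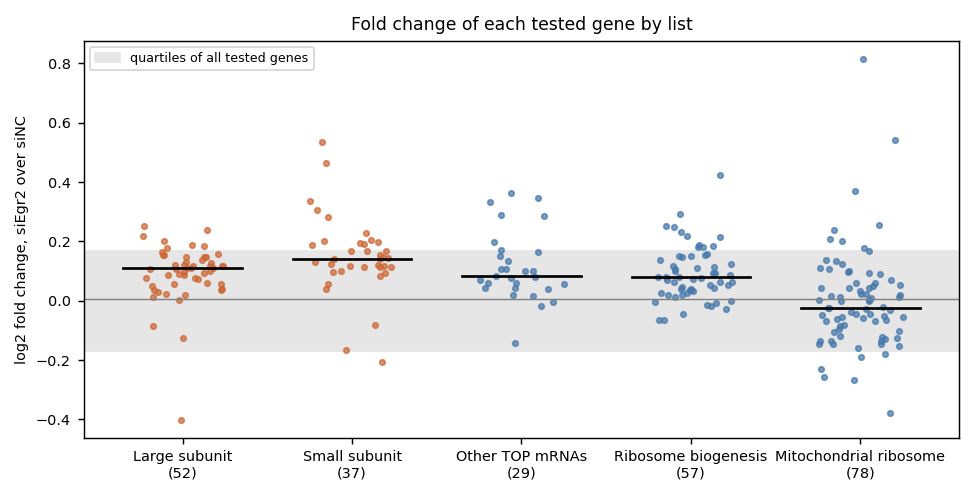
Log2 fold change of every tested gene (points) in 5 lists, with the median of each list (black line) and the quartiles of all tested genes (grey band), on the TMM scale, under which the medians of both cytosolic sets are above 0 (below 0 with library-size scaling). Both cytosolic sets, the other TOP mRNAs and the biogenesis genes have medians between 0.08 and 0.14, and the mitochondrial ribosome has a median of -0.02.

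Among genes upstream, 5 of 25 passed the test in either direction, close to the sum of the shares of all tested genes that rose (8.57%) and fell (11.3%). In the S6 kinase family, 2 of 10 rose, Rps6kb2 (0.23 ± 0.07, adjusted p = 0.0369) and Rps6ka6 (0.46 ± 0.10, adjusted p = 0.00439), and 1 fell, Rps6ka4 (-0.40 ± 0.11, adjusted p = 0.0132). Of 15 genes of TOR signalling and TOP mRNA control, Myc, an activator of ribosome genes, rose (0.34 ± 0.07, adjusted p = 0.00361), as did its partner Max (0.40 ± 0.09, adjusted p = 0.00558), and none fell. Mtor had a log2 fold change of -0.11 ± 0.05 (adjusted p = 0.11), and Larp1, which binds TOP tracts, had -0.01 ± 0.05.

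Short motifs were counted on both strands of the 300-base windows from 250 bases before to 50 after the RefSeq start. The Egr site GCGNGGGCG was found in 8 of the 64 tested members with a window (12.5%) and in 12.5% of all tested genes. It was present in 1 of the 21 members that rose (4.76%) and in 7 of the 43 that did not pass (16.3%). The ETS core CCGGAAG was found in 37.5% of members and 18.7% of all genes, and in 37.7% of mitochondrial ribosomal protein genes. The YY1 site AAGATGGC (9.38% against 4.97%) and the E-box CACGTG (9.38% against 11.3%), which Myc and Max bind, were found in 6 members each. A match says only that these letters occur in the window. Of the 15 members with a TOP tract at the start 3 rose, and of the 49 without one 18 rose. By the run of at least 7 pyrimidines within 25 bases of the start, the split went the other way. It was present in 15 of the 21 members that rose (71.4%) and in 26 of the 43 that did not pass (60.5%). Neither split was tested.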

How the data were processed

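RNA-seq of 12 libraries (6 siNC, 6 siEgr2) was used. According to the labels and methods, total RNA was extracted with TRIzol, cleaned with a column and DNase I and sequenced on the Illumina platform in 50-bp reads, and the authors deposited raw counts per gene symbol. The submitters' processing notes name the build mm10. The aligner, the counter, strand and RNA selection are not given in the sources used here, so reads shared by copies, by overlapping genes (exons of 24 members) or by antisense genes cannot be told apart. One row without a name was left out.

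Counts were filtered with filterByExpr, scaled by TMM and tested with edgeR 4.0.16 (quasi-likelihood, limma 3.58.1, R 4.3.3), with Benjamini-Hochberg adjustment over 16600 genes. CPM values, fold changes and SE come from this fit. Coordinates and transcripts came from GENCODE M21 (92 of 93 members matched) and start windows from RefSeq. The principal complete protein-coding transcript stood for each gene. Python, pandas and SciPy made the summaries.

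Members, lists and tests were chosen with earlier results of these data known. Named genes were Egr2, called members, the 5 highest and 5 lowest log2 fold changes per subunit (mean log2 CPM of at least 2), the 3 highest levels in CPM and per kilobase, and fixed paralogs, stalk, assembly and partner genes, some of which are not reported here. Over the 30 pairs of libraries within a group, the chi-square per gene was 7.20 or more, so no library was a copy of another.

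Alternatives were RLE, upper-quartile and library-size scaling, TMM without members and structural RNA, DESeq2 1.42.0, limma-voom, other filters, a replicate block, thinning, removal of structural RNA, a length and GC correction, named pseudogene rows added, and each library left out. Sequence-matched copies (452 rows sharing at least 10% of 50-base words), the largest and smallest library left out together, and a fit of protein-coding genes with all members kept were added after the data were seen.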

Additional observations from a re-analysis of the deposited data

Results flagged for a closer look

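A single library stood apart from the other 5 of its group in 11 of the 96 groups of 6 values examined. Dixon's test at the 95% level was used, under which 1 in 20, about 4.8, would stand apart. This is not a chance expectation for these genes, which share libraries. Some, such as Rpl29 and Rps25, were named for their change in these same data. In siNC replicate 3, Rps25 was at 164 CPM against 105 to 113 in the others, and Rps10 was at 163 CPM against 89.6 to 106. In siNC replicate 4, Rps27a was at 230 CPM against 129 to 150, and Rpl11 at 247 CPM against 308 to 329. In siEgr2 replicate 4, Rpl29 was at 3.66 CPM against 98.7 to 133. Rpl22 was at 151 CPM in siNC replicate 5 against 170 to 178, and at 227 CPM in siEgr2 replicate 2 against 189 to 202. Rps3 was at 573 CPM in siEgr2 replicate 2 against 526 to 543. Rps3a1 was at 469 CPM in siEgr2 replicate 6 against 528 to 562. Fau was at 168 CPM in siNC replicate 6 against 156 to 160. Rpl39l was at 0.488 CPM in siEgr2 replicate 2 and at 0 in the other 5.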

How the results depend on the processing

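Scaling by library size alone changed most. Large subunit genes that rose numbered 0 and 9 fell, small subunit genes that rose numbered 1 and 3 fell, no member was called with the fold limit (of all genes 3.04% rose and 32.6% fell), and the medians reversed to -0.075 and -0.042, while the median of all genes moved to -0.18. Under it these log2 fold changes were below 0: Rack1 -0.13, Rpl10 -0.10, Rpl13 -0.0064, Rpl22l1 -0.16, Rpl3 -0.065, Rpl36a -0.066, Rpl36al -0.034, Rpl39 -0.18, Rpl4 -0.11, Rpl5 -0.071, Rpl7 -0.054, Rpl7l1 -0.064, Rpl9 -0.17, Rplp0 -0.083, Rplp1 -0.11, Rplp2 -0.12, Rps12 -0.14, Rps15 -0.066, Rps19bp1 -0.10, Rps27 -0.014, Rps29 -0.038, Rps3 -0.028, Rps3a1 -0.087, Rps4x -0.13, Rps6 -0.0500 and Rpsa -0.10. With no filter, which tested 30142 genes, 6 large and 5 small subunit genes rose (4.13% of all genes), 0 were called with the fold limit, and Rpl22l1 (-0.019), Rpl39 (-0.041), Rpl9 (-0.032) and Rps12 (-0.00504) were below 0. With length and GC trends removed 23 large subunit genes rose (10.1% of all genes), and Rpl22l1 (-0.024) and Rplp1 (-0.013) reversed. With sequence-matched copies added 24 large and 20 small subunit genes rose (8.8% of all genes), and Rpl7a (0.16) and Rps13 (0.19) reversed. With named pseudogene rows added, Rpl7a (0.088), Rps13 (0.18) and Rpl39 (-0.00032) reversed. Without the largest and smallest library Rpl22l1 (-0.017) and Rpl9 (-0.0055) were below 0. Leaving out 1 library at a time gave 11 to 18 large and 10 to 15 small subunit genes that rose, medians of 0.08 to 0.12 and 0.12 to 0.15, and 0 (without siEgr2 replicate 1, where Rps25 fell under the fold limit) to 2 (without siNC replicate 3, with Rps10) called members. The log2 fold changes then ranged as follows: Rpl39 -0.016 to 0.036, Rpl22l1 -0.011 to 0.074, Rpl9 -0.0087 to 0.037 and Rps19bp1 -0.022 to 0.15. In all other alternatives 10 to 22 large and 11 to 19 small subunit genes rose and 0 fell. Except where given above, the cause was not tested. Of 1232 named-gene comparisons with an alternative, 1102 kept their direction and side of the threshold.

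With the replicate number as a block, 10 large and 12 small subunit genes rose in place of 15 and 15 (6.9% of all genes), and the Rps25 change was 0.55. Deviations of same-numbered libraries correlated at -0.04 to 0.04, and 2 of 6 siNC libraries correlated best with their own number, so the numbers were taken as names.

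Counts covered counting error only. The smallest library, siEgr2 replicate 5, held 8034251 counts. After thinning to that total, 13 large and 11 small subunit genes rose (7.94% of all genes).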
